A study of Mus with 4 samples.

Results

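Of 44073 circular RNAs (circRNAs) listed in mouse ocular tissue, 380 sat at splice sites where reads of the circle dominated. They were chosen by 2 values: at least 20 back-spliced junction reads in each of the 4 libraries, and a junction ratio of at least 0.85 over the libraries pooled. The ratio is 2J / (2J + N), where J counts junction reads and N counts non-junction reads. Non-junction reads are those that the caller assigned to the same splice positions without the back-splice. The read minimum was met by 2193 circRNAs, of which the 380 made up 17.3%, and the other 1813 are used below for comparison. Since the ratio chose them, its level is described here without a test.

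Tissue came from C57BL/6J mice, which were wild type or carried the VLDLR deletion (VLDLR is the receptor for very-low-density lipoprotein). All pups had been kept in 75% oxygen from postnatal day 7 to postnatal day 12 (P12). Tissue was taken at P12, straight after the oxygen, or at P13 after a day in room air, so that age and the return to room air cannot be told apart. The groups were wild type at P12, wild type at P13, VLDLR deletion at P12 and VLDLR deletion at P13, and each was 1 library of an unstated number of animals. Series of 4 values below follow that order. Every library came from total RNA freed of ribosomal and linear RNA, and no library without that removal was compared. The ratio therefore describes reads after the removal of linear RNA and not the share of molecules in the tissue.

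A circRNA forms when the spliceosome joins a downstream splice donor to an upstream acceptor, which closes the exons between them into a ring without free ends. Rings resist exonucleases and can outlast the linear messenger RNA of the same gene, and they are known to be plentiful in neural tissue, the retina included. At most host genes the linear RNA is nevertheless the main product, and a gene can make several rings that share a splice site. Forward splicing inside a larger ring also gives non-junction reads at an inner splice site. The part of such reads was not tested.

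Junction reads per library numbered 662811, 759063, 299723 and 341873. The 380 circRNAs, 0.862% of those listed, took between 26.5% and 26.7% of them in every library. The other 1813 with the read minimum took 34.9%, 35.2%, 39.9% and 39.1%. A large part of the reads follows from the read minimum itself. No circRNA of Vldlr was listed in any library (count 0), so the targeted gene gave no check of the labels. The wild-type libraries and the deletion libraries shared 0 sequencing runs, and genotype and run cannot be told apart.

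Ratios were spread widely among circRNAs with enough reads. Pooled ratios of the 380 had a median of 0.907 (quartiles 0.880 and 0.938), against 0.564 among the other 1813. Of the 380, 211 reached 0.90 and 55 reached 0.95. The histogram had no gap at 0.85: 171 circRNAs lay from 0.80 up to 0.85 and 169 from 0.85 up to 0.90. Just inside the limit were circRNAs of Pias2, a SUMO ligase gene (0.852), Wac (0.851) and the retinoic acid receptor gene Rara (0.8502). Just outside were an intergenic circRNA at chr6:67077248-67116767 (0.8497), one of the mitochondrial protease gene Oma1 (0.8497) and one of Dcun1d4 (0.849). The limit therefore cuts a continuous range.

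**Figure D1:**
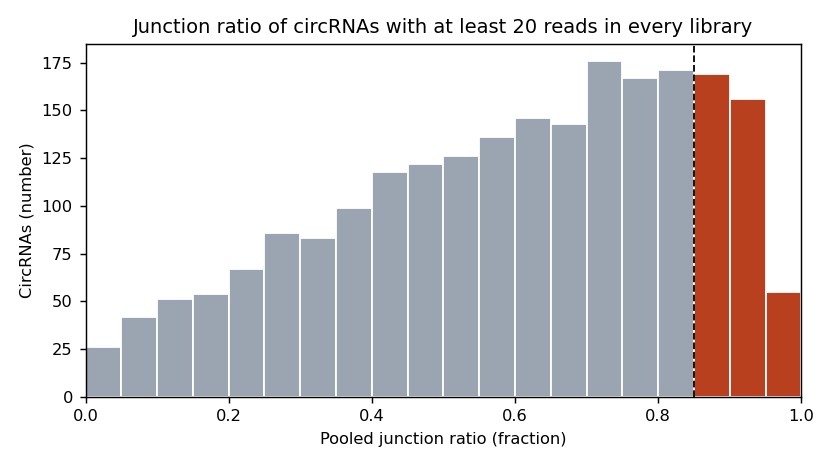
Number of circRNAs (vertical axis) by pooled junction ratio in steps of 0.05 (horizontal axis), for the 2193 circRNAs with at least 20 junction reads in every library. The dashed line is the limit of 0.85, and the 380 circRNAs to its right are in red; counts rise to 176 between 0.70 and 0.75 and show no gap at the line.

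Most of the 380 also had a high ratio in single libraries. The same reads gave the pooled ratio that chose the 380, so these values are a description. Medians by library were 0.910, 0.911, 0.907 and 0.911. In 254 circRNAs the ratio was at least 0.85 in every library, in 74 it was so in 3, in 48 in 2 and in 4 in 1. When the choice was made without wild type P12, 330 of the 394 chosen circRNAs with enough reads there also reached 0.85 in that library (83.8%). For the other libraries, each left out of the choice in turn, the shares were 88.7%, 81.2% and 80.7%. The sets chosen in this way are not the 380 themselves. Among all circRNAs with at least 20 reads in the library, whatever their reads elsewhere, 9.33%, 9.80%, 16.3% and 14.7% reached 0.85 in the same order. When the choice was made on the 2 wild-type libraries, the median ratio read in the deletion was 0.903 at P12 and 0.904 at P13.

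The most abundant of the 380 was also the one with the highest ratio. This intergenic circRNA at chr10:92075170-92136690, 61521 bases from end to end, had 6917, 8525, 2781 and 2884 junction reads. The non-junction reads were 114, 134, 63 and 58, and the pooled ratio was 0.991 (95% Clopper-Pearson interval 0.990 to 0.992, counting error only). The ratio moved between 0.989 and 0.992 over the libraries. The deposited tables class it as intergenic and give it no host. In RefSeq's gene table for GRCm38.p6 the same interval overlaps in part the long noncoding RNA gene Rmst, read on the assumption that the tables use that build, which they do not name. Of the 23 members classed as intergenic, 18 overlap a gene of that table on either strand.

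Next came a circRNA of Gigyf2, whose protein takes part in translational repression (chr1:87364104-87380008, exon class). It held 4686, 5253, 2142 and 2619 junction reads, against 160, 191, 80 and 84 non-junction reads. Its pooled ratio was 0.983, and it took 96.5% of the junction reads of the 21 circRNAs listed for Gigyf2. Hipk3, a homeodomain-interacting protein kinase gene and a widely studied source of a circRNA, had a ring spanning 1099 bases (chr2:104470749-104471847). This ring held 97.9% of the host's junction reads and had a ratio of 0.971. For Phf21a, which encodes a subunit of a histone demethylase complex, the share of the host was 96.4% and the ratio 0.957. Tulp4, a tubby-like protein gene, gave a circRNA of the intron class with a share of 93.0% and a ratio of 0.961. In each of these 4 hosts, 1 ring held over 90% of the junction reads.

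Other abundant rings came from hosts that make many. Ano2, the gene of a calcium-activated chloride channel found at the photoreceptor synapse, had 60 circRNAs listed and 2 among the 380. The one at chr6:125710556-125712447 held 3825, 5190, 2019 and 2318 junction reads and 54.0% of the reads of the host, with a ratio of 0.915. Bbs9, which encodes a subunit of the ciliary BBSome, had 78 listed and also 2 among the 380. Of the remainder of the 10 most abundant, Mettl9, a histidine methyltransferase gene, had a ratio of 0.977, Rbm4, a splicing regulator gene, 0.980, and Snrk, a kinase gene, 0.908.

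Some of the highest ratios belonged to less abundant circRNAs of hosts with few rings. E2f5, a transcription factor gene, had 1 listed circRNA (chr3:14587310-14588313, intron class) with 128, 155, 145 and 113 junction reads and 7, 7, 0 and 0 non-junction reads, which gave a ratio of 0.987. Alg12, a mannosyltransferase gene of N-glycan assembly, had a ratio of 0.983 with 1022, 1151, 480 and 517 junction reads, and 99.8% of the junction reads of the host. The other members of the 10 highest were from Camsap1, a microtubule minus-end binding protein gene (0.980), Rbm4, Mettl9, the cation channel gene Trpc6 (0.977), Fam228b (0.976) and Abhd17b, a depalmitoylase gene (0.976). Besides E2f5, 7 of the 380 had 0 non-junction reads in some library, among them the potassium channel gene Kcnk10, the splicing factor gene Nova2 and Pvt1. Their counts were low: Kcnk10 had 32, 53, 43 and 40 junction reads and 0, 4, 3 and 2 non-junction reads.

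The 380 came from 339 host genes, 321 with 1 member and 18 with 2, plus 23 circRNAs annotated as intergenic. By class 342 were exonic and 15 intronic, so that exonic ones made up 90%, against 92.8% of the other 1813. Intergenic ones made up 6.05% against 3.81%. Members were shorter on the genome, with a median span of 6224 bases against 10280. Spans under 1000 bases were found in 65 of the 380, namely 5.53% under 500 bases and 11.6% from 500 to 1000, against 2.70% and 5.19% of the others. Spans of 50000 bases or more made up 2.89% against 7.89%. The shortest were the intergenic one at chr9:63093427-63093625 (199 bases), one of Med13l, a Mediator subunit gene (238 bases), and one of the thyroid hormone receptor gene Thrb (261 bases). The longest came from Mpped2 (84571 bases), the zinc finger repressor gene Zeb1 (72040) and Etv6, an ETS factor gene (71111). Span was not part of the choice, but the 380 also had more reads than the others (a median of 756.5 summed junction reads against 264), and the part of depth in these differences was not tested.

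**Figure D2:**
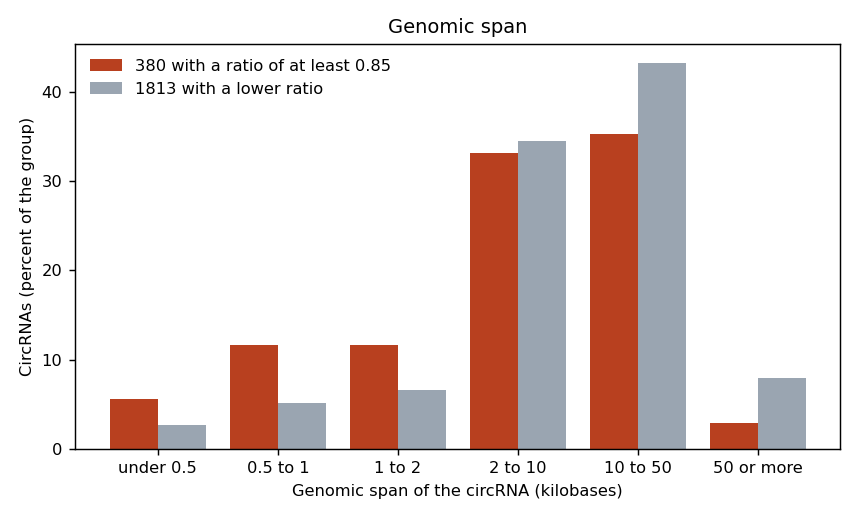
Percent of circRNAs (vertical axis) in each class of genomic span in kilobases (horizontal axis), for the 380 with a ratio of at least 0.85 (red bars) and the 1813 with a lower ratio (grey bars). The red bars are the taller ones in all 3 classes under 2 kilobases, and the grey ones from 2 kilobases up.

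A ring with a high ratio was usually the main ring of its host. Of 357 members with a host, 323 (90.5%) had the most junction reads of all circRNAs of that host, against 52.5% of the others. The median share of the host's junction reads was 78.1% against 29.7%, and the median number of circRNAs listed per host was 8 against 17. At both ends of 41 members (10.8%) no other circRNA was listed, against 3.75% of the others. For 70 members (18.4%) no listed circRNA enclosed them, against 9.27%. The median number of junction reads in enclosing circRNAs was 25 against 115. More reads make it likelier that a ring ranks first in its host, so rank and depth are not separate measures here.

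Within a host, the ratio differed widely from ring to ring. In 128 hosts a member and at least 1 other circRNA met the read minimum. The rings compared below are the ones with the highest and the lowest ratio of a host, so the direction of each gap was set by the choice and the values are a description. The widest gap was in Gigyf2, where the member had 14700 junction and 515 non-junction reads summed over the libraries. Another Gigyf2 ring that begins at the same position but ends at 87365279 had 133 junction and 7868 non-junction reads, a ratio of 0.0327. These 2 rings share their start and differ in their end. Similar gaps were seen in Hdgfl3, a gene of the hepatoma-derived growth factor family (0.976 against 0.0774, with a shared end), and in Lrch3 (0.972 against 0.0774, with a shared start). In Ano2 the lowest ratio was 0.0315, and in Bbs9 it was 0.0428, from rings with no end in common with the member of the highest ratio. Each of these rings shares its end position with the other member of its host. Inner ends of larger rings can take reads from forward splicing in the ring itself, and that part was not tested.

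**Figure D3:**
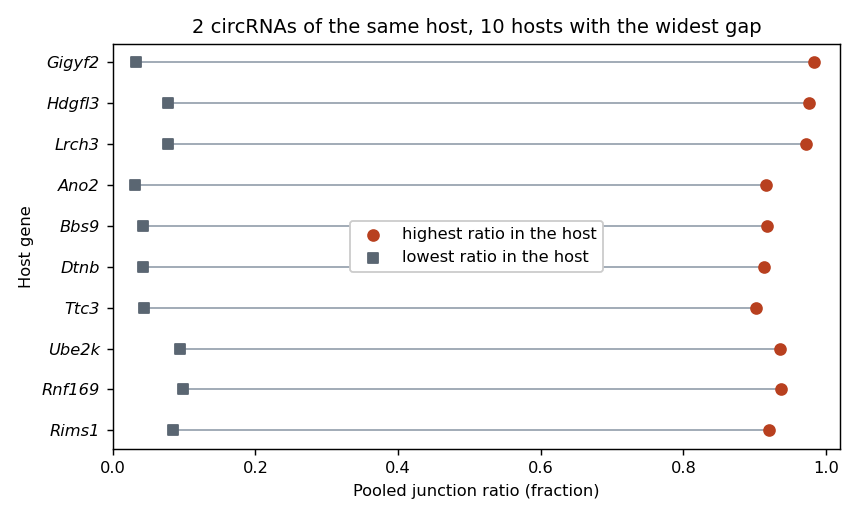
Pooled junction ratio (horizontal axis) of the circRNA with the highest ratio (red circles) and of the one with the lowest (grey squares) in the 10 host genes with the widest gap, among circRNAs with at least 20 reads in every library. All red circles lie above 0.90 and all grey squares below 0.10.

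The genotypes were compared first by junction reads. In the VLDLR deletion, circRNAs of Med13l, Bbs9, Eefsec, Plekho1 and Pan3 rose, and circRNAs of Neurl1a, Ptpn21, Tmcc1, Ep400 and Rara fell. Of the 380, 56 rose and 43 fell, in a fit over the 8785 circRNAs that reached 10 reads in 2 or more libraries (edgeR's quasi-likelihood test, Benjamini-Hochberg adjusted p under 0.05, genotype and day as additive terms). Over all circRNAs tested, 5.03% rose and 3.59% fell. Of the other 1813 with the same read minimum, 13.5% rose and 4.08% fell, against 14.7% and 11.3% of the 380. The share of all tested that fell changed with the libraries used. With either deletion library left out it was higher and nearer to the share of the 380 that fell. The share of the other 1813 that fell then stayed near that of the main fit. With either wild-type library left out the share of all tested that fell was lower. These fits had no day term and left 1 library in a group. The 380 had more reads per circRNA, and the difference between these shares was not tested. The junction reads tested are also those in the ratio that chose the 380, with 68.9% of them from wild type. The members' counts are therefore a description and support nothing about the ratio. The median log2 fold change of the 380 was 0.03, against -0.08 over all tested. With 1 library per group the fit has 1 residual degree of freedom, and its p-values measure only the spread between these libraries.

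The split of calls depended on the scaling. Fold changes are relative to the typical circRNA (TMM scaling, effective sizes of 571398, 647714, 258475 and 290649 reads). With the constants behind the deposited SRPBM values as library sizes, the median of all circRNAs shifted to -1.54, and among the 380 there were 3 rises and 340 falls. By that measure 13 of the 56 rises stayed above wild type and 23 were called lower. Over all circRNAs tested that scaling called 0.285% higher and 54.3% lower. Without the filter on low counts 32 of the 380 rose and 69 fell, against 0.590% and 1.07% of all 44073. With at least 20 reads in every library 56 rose and 90 fell (14.7% and 23.7%), against 17.2% and 13.5% of all 2193 tested. DESeq2 called 47 higher and 38 lower, against 2.31% and 1.41% of all tested. It gave no adjusted p for 5620 of the 8785 tested, against 0 of the 380. A circRNA without one could not be called, so these shares are not on an equal footing.

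Med13l, a gene of the kinase module of Mediator, had the smallest p among the circRNAs that rose (chr5:118593333-118593570, exon class). Its junction reads were 403, 347, 782 and 657. Both deletion libraries were higher, before scaling too, although they were the shallower ones. The log2 fold change was 2.09 ± 0.13 (SE; edgeR's quasi-likelihood test, adjusted p = 3.13e-08). It remained above wild type on the SRPBM scale, at 0.63. The ratio of this ring was below 0.85 in each wild-type library. It was chosen through the deletion libraries, so its rise is a description.

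The largest rise was in the shortest of the 380, the intergenic circRNA at chr9:63093427-63093625. It went from 41 and 39 reads (wild type) to 163 and 131 (deletion), with a log2 fold change of 3.02 ± 0.22 (edgeR adjusted p = 1.58e-07). Here too the groups did not overlap. An intron-class circRNA of BC046251 held 116, 129, 243 and 223 reads, a log2 fold change of 2.08. Eefsec, which encodes the elongation factor for selenocysteine, had a circRNA with 317, 349, 533 and 417 reads and a log2 fold change of 1.65. Plekho1, a gene of a pleckstrin homology domain protein, had one with 270, 249, 377 and 275 reads and a log2 fold change of 1.47. In each of them the scaled level was higher in both deletion libraries than in either wild-type one. The intergenic ring, Eefsec and Plekho1 had a pooled wild-type ratio below 0.85 and entered the 380 through the deletion libraries. On the SRPBM scale Eefsec and Plekho1 lost their calls, with log2 fold changes of 0.19 and 0.0048 (edgeR adjusted p = 0.415 and 0.982).

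The other circRNAs among the 10 smallest p that rose were from Bbs9 (described below), Pan3, a deadenylase subunit gene (log2 fold change 1.35), Pola1, the gene of the catalytic subunit of DNA polymerase alpha (1.39), Camta1, a calmodulin-binding transcription activator gene (0.98), and Nmt1, an N-myristoyltransferase gene (1.23). On the SRPBM scale Pan3, Pola1, Camta1 and Nmt1 lay below wild type. Pan3 had a pooled wild-type ratio below 0.85 and was chosen through the deletion libraries. The 56 covered 49 hosts and 7 intergenic circRNAs. Of the latter, those at chr1:130682149-130684070 and chr1:130682149-130684073 differ by 3 bases at 1 end, and reads may be split between them.

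Among the 43 that fell, Neurl1a, a neuralized-family ubiquitin ligase gene, went furthest (chr19:47239802-47240671, exon class). From wild type to the deletion its reads went from 421 and 346 to 34 and 25, with a log2 fold change of -2.55 ± 0.21 (edgeR adjusted p = 5.15e-07). Ptpn21, a tyrosine phosphatase gene, went from 471 and 516 reads to 46 and 49 (log2 fold change -2.22). These falls were far larger than the gap between the 2 days of a genotype. Neurl1a and Ptpn21 had a ratio below 0.85 in each deletion library and were chosen through the wild-type libraries. The choice thus favoured high wild-type junction reads in them, and their falls are a description.

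Tmcc1, which encodes a membrane protein of the endoplasmic reticulum, went from 312 and 368 reads to 25 and 35 (log2 fold change -2.36). Rara, the retinoic acid receptor alpha gene, had 205 and 217 against 26 and 23 (-1.95). Tmcc1 and Rara too had a ratio below 0.85 in each deletion library. They were chosen through the wild-type libraries, so their falls are a description. For Ep400, the gene of a chromatin-remodelling ATPase, the ring at chr5:110755397-110756766 had 981 and 1152 against 208 and 217 (-1.17). The fall in Rtn2, a reticulon gene, was -1.18, in Tmem132d -1.48, in Tmeff1 -1.20, in Ptchd4 -1.40, and in Tbc1d14, a regulator of autophagy, -0.83. Hipk3, with 3989, 4372, 1113 and 1409 reads, fell by 0.59 on the log2 scale (edgeR adjusted p = 0.00158). Mettl9 fell by 0.36.

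Scaled junction levels in the deletion lay above both wild-type libraries in all 56 that rose and below both in all 43 that fell. With 4 libraries in an additive fit, such a separation goes with the call and adds no support to it. It was counted only among the members with a call, so no share over all circRNAs tested is given. The most abundant ring, the intergenic one of chromosome 10, had a log2 fold change of -0.29 (edgeR adjusted p = 0.0773), and that of Gigyf2 had 0.08 (adjusted p = 0.693). Neither passed the test.

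**Figure D4:**
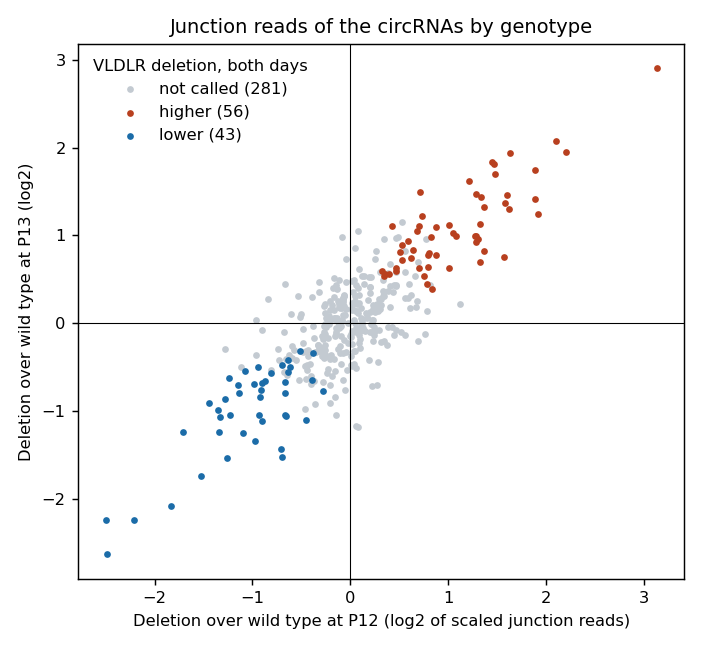
Log2 ratio of scaled junction reads, deletion over wild type, at P12 (horizontal axis) and at P13 (vertical axis), 1 point per circRNA for the 380 circRNAs. Red points (56) rose and blue points (43) fell in the fit over both days; every one of them has the same sign at both days, and grey points (281) passed in neither direction.

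The second comparison asked whether the junction reads moved apart from the non-junction reads at the same sites. This share was tested as a change in the odds of a junction read between genotypes, within each library, and it does not depend on how libraries are scaled. The reads in this test are those that chose the 380, so the members' counts and values are a description and support nothing about the ratio. In the deletion the junction share of 8 circRNAs rose and that of 17 fell, in a fit over 4052 circRNAs with at least 10 junction reads in each library (edgeR's quasi-likelihood test, adjusted p under 0.05). Over all 4052, 5.58% rose and 3.43% fell, against 2.11% and 4.47% of the 380 and 8.44% and 4.14% of the other 1813. The difference between these shares was not tested. Their median log2 change of the odds was -0.11, against 0.04 over all tested. The ratio was lower in the deletion at both days in 146 of the 380 and higher at both days in 101, whereas among the other 1813 it was lower in 539 and higher in 710. The wild-type libraries gave 68.9% of the pooled junction reads of the 380, so that the choice leaned on wild type. Chosen instead on the unweighted mean of the 4 ratios, 363 circRNAs held 7 rises and 13 falls.

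The counts of share changes rested on few libraries, among the 380 and over all 4052. Without wild type P13, 3 members rose and 1 fell, and the calls over all 4052 went from 226 and 139 to 56 and 31. Leaving out wild type P12 gave 5 and 3 members, with 87 and 30 over all. Without deletion P12 the counts were 5 and 10 (135 and 72 over all), and without deletion P13 they were 8 and 7 (172 and 85 over all). DESeq2 called 6 and 2 members, with 82 and 30 over all, and gave no adjusted p for 69 members and 1176 of the 4052. All 6 of these rises and both falls were among the edgeR calls.

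All 8 circRNAs whose share rose were also among the 56 whose junction reads rose, a comparison that uses the same junction reads. Med13l had 228, 154, 95 and 81 non-junction reads, and its ratio went from 0.779 and 0.818 to 0.943 and 0.942. The log2 change of the odds was 2.04 ± 0.21 (SE). Plekho1 had 143, 117, 45 and 31 non-junction reads, with ratios of 0.791 and 0.810 against 0.944 and 0.947. Of the 8, 6 had a pooled wild-type ratio below 0.85 and entered the 380 through the deletion libraries: these 2, Eefsec, Vapa, Pan3 and the intergenic ring described next. Likewise 10 of the 17 with a lower share had a pooled ratio below 0.85 in the deletion and entered through wild type.

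The intergenic ring at chr9:63093427-63093625 had the widest range of all 380, with ratios of 0.701, 0.639, 0.924 and 0.939 (log2 change of the odds 2.72). Eefsec went from 0.787 and 0.806 to 0.913 and 0.877. Vapa, a gene of a membrane contact site protein, went from 0.794 and 0.806 to 0.927 and 0.906. The remaining rises were in Bbs9, Pan3 and E2f5. For E2f5 the deletion libraries had 0 non-junction reads against 7 and 7, so its change of the odds is not given a size.

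Of the 17 whose share fell, 9 were among the 43 whose junction reads fell. Tmcc1 had ratios of 0.930, 0.908, 0.641 and 0.680, with 47, 75, 28 and 33 non-junction reads (log2 change of the odds -2.52 ± 0.36). Its junction reads fell while the non-junction reads did not fall in step. Rara went from 0.880 and 0.866 to 0.722 and 0.667, Neurl1a from 0.910 and 0.8501 to 0.782 and 0.704, and Ptpn21 from 0.864 and 0.872 to 0.754 and 0.766. Galnt7, a glycosyltransferase gene, Bfar, a ubiquitin ligase gene, the insulin receptor gene Insr, Pde5a, a cyclic GMP phosphodiesterase gene, and 2210408I21Rik were the other 5.

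The other 8 of the 17 had no call by junction reads. Psd3, a gene of an Arf exchange factor, had 527, 587, 176 and 189 junction reads and 78, 67, 50 and 75 non-junction reads. Its ratio went from 0.931 and 0.946 to 0.876 and 0.834 (log2 change of the odds -1.38 ± 0.26). Rpgrip1, whose protein sits at the connecting cilium of photoreceptors, went from 0.887 and 0.877 to 0.839 and 0.813 (-0.66). In Rbm4, the most abundant of the 17, the shift was small, from 0.983 and 0.983 to 0.974 and 0.972 (-0.68). Slc45a4, a solute carrier gene, Zc3h12b, a gene of an RNase family, the kinase gene Stk35, Gbe1, the glycogen branching enzyme gene, and an intergenic circRNA at chr9:16374949-16378254 completed them. A ratio near 1 leaves little room, so that a change of the odds is a small change of the ratio there.

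**Figure D5:**
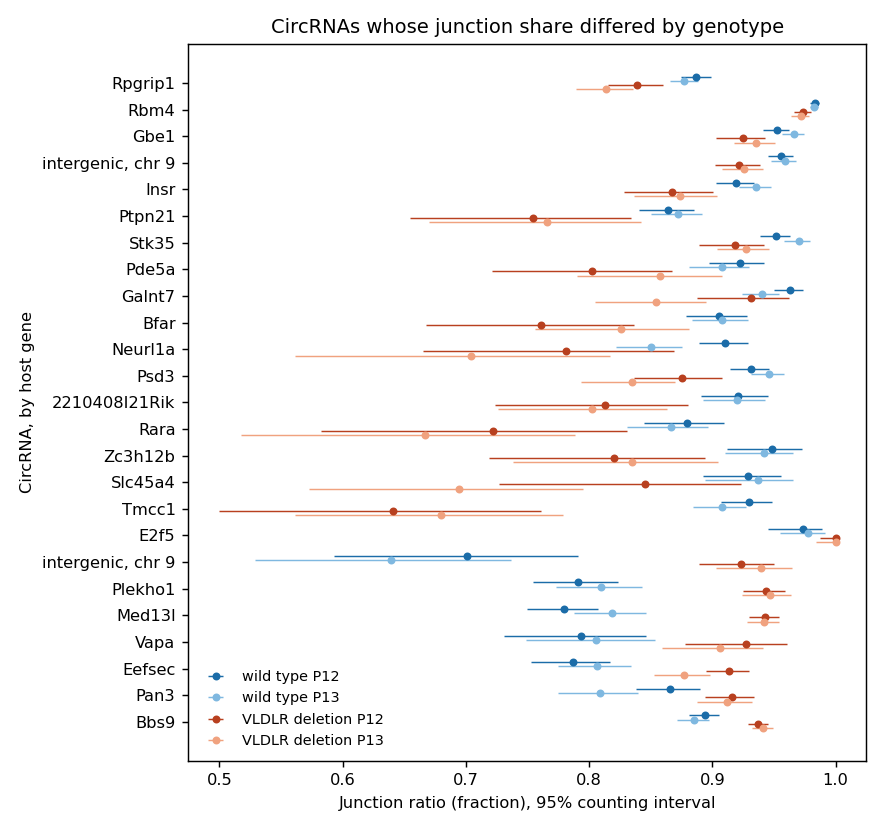
Junction ratio (horizontal axis, with 95% Clopper-Pearson intervals for counting error) in each of the 4 libraries for the 25 circRNAs whose junction share changed with genotype, by host gene (vertical axis). Blue points are wild type and red points the deletion, darker at P12; in the lower 8 the red points lie to the right of the blue ones, and in the upper 17 to the left.

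By span, circRNAs with a call by share and those whose junction reads fell were short, and those whose junction reads rose were near the uncalled ones. The median span was 919.5 bases for the 8 whose share rose, 870 for the 17 whose share fell and 6788 for the 355 without a call. For junction reads it was 5523.5 bases in the 56 that rose, 1743 in the 43 that fell and 6884 in the 281 without a call. These medians are a description, without a test.

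Hosts with 2 members showed how far rings of 1 gene can move apart. In Bbs9 the ring at chr9:22887581-22887996 had 1271, 1198, 1743 and 1480 junction reads. It rose by a log2 fold change of 1.53 ± 0.11 (edgeR adjusted p = 1.58e-07), and its ratio rose from 0.894 and 0.885 to 0.937 and 0.941. The other Bbs9 ring, at chr9:22643745-22679064, had 4081, 5739, 1404 and 1641 reads, and it fell by 0.52 on the log2 scale (adjusted p = 0.00351). Its ratio was 0.906, 0.913, 0.908 and 0.921 over the libraries. On the SRPBM scale the first was at 0.07 and the second at -1.98. The rings share no splice site.

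Bbs9 was the single host of the 18 whose 2 members were called in opposite directions. In Pde5a and Ep400 both members fell. Both members of Ep400 end at the same position, chr5:110756766. In 6 hosts 1 member rose and the other had no call, among them the acetyltransferase gene Ep300, the Polycomb methyltransferase gene Ezh2 and Rev1, a translesion polymerase gene. For Ep300 the ring at chr15:81631614-81632512 had a log2 fold change of 1.13 and the one at chr15:81628293-81628737 had 0.11. In 2210408I21Rik 1 member fell and the other had no call, and in the remaining 8 hosts neither was called. Whether 2 rings of a host differed from each other was not tested.

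The days differed far less than the genotypes, although genotype cannot be told apart from sequencing run. By junction reads 0 of the 380 rose and 0 fell from P12 to P13 in edgeR's quasi-likelihood test, with 9 higher and 10 lower at an unadjusted p under 0.05. Over all 8785 tested, 0.0114% rose and 0.0114% fell. DESeq2 also called 0 and 0, with 1 and 6 unadjusted. The smallest adjusted p was 0.623, for Tmem132d, with 822, 511, 114 and 97 reads. The median size of the log2 fold change was 0.13 for the day, against 0.33 for the genotype. For the junction share, edgeR called 0 and 0 of the 380 and 0% of the 4052 in each direction, with 11 higher and 10 lower members unadjusted, and DESeq2 called 0 and 0, with 1 and 2 unadjusted. Within members, the ratio moved from P12 to P13 by a median of 0.00274 in wild type and 0.00211 in the deletion.

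Host lists gave the following counts, of members among circRNAs with the read minimum, where 17.3% is the share over all hosts. Rises and falls are those by junction reads, called in 14.7% and 11.3% of the 380 and in 5.03% and 3.59% of all circRNAs tested. No list was tested against these shares. Genes widely studied as circRNA hosts had 18 of 93 (19.4%), 1 that rose and 1 that fell by genotype. Chromatin and transcription regulators had 21 of 125 (16.8%), with 5 that rose, among them Med13l, Ep300, Ezh2 and Phf20, and 2 that fell, both from Ep400. RNA-binding and splicing genes had 10 of 55 (18.2%), of which Pan3 and Rbms1 rose. That list also held the kinase gene Snrk, which is counted again among the kinases. Kinases and phosphatases had 11 of 82 (13.4%), with 2 that rose and 4 that fell, Hipk3, Insr, Ptpn21 and the ephrin receptor gene Epha5. Synapse genes had 8 of 59 (13.6%), led by Unc13b, a vesicle priming gene, with a ratio of 0.901, and 1 fell (Dlgap4). Ubiquitin genes had 9 of 68 (13.2%), with 1 that rose and 1 that fell. Cilium genes had 4 of 28 (14.3%), with 2 that rose and 1 that fell. The 2 were 1 ring of Bbs9 and that of Kif3b, an anterograde transport motor gene (log2 fold change 0.90), and the 1 was the other ring of Bbs9.

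Photoreceptor hosts had 3 members of 56 circRNAs (5.36%), both rings of Ano2 and that of Rpgrip1, and none passed the test by junction reads. The median pooled ratio of these 56, with the 3 members included, was 0.292. That of all circRNAs with the read minimum outside the 380, a set without members, was 0.564. Hypoxia response genes had 1 of 13, in Zfp292, which rose by a log2 fold change of 0.62 with 528, 583, 345 and 430 reads. Lipoprotein receptor and Reelin genes had 1 of 10, in the Wnt co-receptor gene Lrp6, with 388, 399, 90 and 183 reads and no call. Among the lists for other cells of the eye, bipolar cell hosts had 0 members of 4 circRNAs, lens hosts 0 of 10, striated muscle hosts 0 of 12, corneal and conjunctival hosts 0 of 2, pigment epithelium and melanocyte hosts 0 of 1 and leukocyte hosts 0 of 1. Hosts of Müller glia, of amacrine, horizontal and ganglion cells and of endothelium had 0 circRNAs with the read minimum.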

How the data were processed

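Per the file headers, the deposited tables have the columns of the caller CIRI and give whole-number counts of junction and non-junction reads per circRNA, not normalised. The deposited junction ratio is a fraction, which the authors computed as 2 times junction reads over 2 times junction plus non-junction reads (recomputed here within 0.0005). The deposited SRPBM signal is the authors' junction count divided by 1 constant per library (9.1437, 9.0993, 10.6152 and 12.0614 in library order). The submitters' processing notes name BWA and DESeq2. The genome build was not given in the sources used here, nor was the annotation, and coordinates are those of the tables. Host identifiers of all 357 members with a host matched a RefSeq gene table (GRCm38.p6, used for names and for which genes overlap members classed as intergenic). Tables list circRNAs with at least 2 junction reads, and unlisted ones were taken as 0. For 65 circRNAs the class, host or strand differed between tables, and the order of preference was exon, intron, intergenic.

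Junction counts were tested with edgeR 4.0.16 (R 4.3.3; TMM, robust quasi-likelihood, genotype and day additive). The share test used the junction and non-junction counts of each library as separate columns, with library as a block and read type by genotype and by day. DESeq2 1.42.0 was an alternative. Fits with 1 library left out kept only the tested term, so those for genotype had no day term. Each fit ran over all circRNAs that met its minimum, with Benjamini-Hochberg adjustment at 0.05. The main edgeR fits were also run on simulated counts, and the outcome is not given here. Intervals are 95% Clopper-Pearson and cover counting error only, since reads carry no molecular identifiers. Depth, from 299723 to 759063 junction reads, limits precision in the deletion libraries.

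The members, host lists and tests were chosen with earlier results of these data known. Named circRNAs were the 10 with most reads, the 10 with the highest ratio, the 10 with the smallest p per test and direction, the 5 with the widest range over libraries, the 3 on each side of the limit, the 3 longest and shortest, intron and intergenic ones by reads, up to 4 per host list, and the 5 hosts with the widest gap. Further names in counts (Kcnk10, Nova2, Pvt1, Dlgap4, Epha5, Rbms1, Phf20, hosts with 2 members) were chosen after their values were seen. No genome was used here, so no sequence across a junction is given.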

Additional observations from a re-analysis of the deposited data

Results flagged for a closer look

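With 1 library per group, an interaction of genotype and day could not be tested, and none of the differences here was tested. Among the 380 circRNAs, 14 had scaled read ratios whose 95% exact intervals (counting error only) lay on opposite sides of 1 at the 2 days or in the 2 genotypes. This was counted among the 380 only, so no share over all circRNAs is given, and the values are a description. For the deletion over wild type, the ratio at P12 and at P13 was 0.762 and 1.23 for Stk35, 0.804 and 1.38 for a Glcci1 circRNA (chr6:8537817-8582790), 0.691 and 1.24 for Kank1, 0.925 and 1.14 for Ttc3, 0.891 and 1.23 for the intergenic circRNA at chr7:132948044-132950435, and 0.558 and 1.21 for Usp12. All 6 were lower in the deletion at P12 and higher at P13.

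For P13 over P12, the ratio in wild type and in the deletion was 1.09 and 0.922 for the intergenic circRNA at chr10:92075170-92136690, 1.30 and 0.731 for Glp2r, 1.28 and 0.655 for Zdhhc21, 1.14 and 0.790 for Cabin1, and 1.24 and 0.669 for Fgfr2. These 5 were higher at P13 in wild type and lower at P13 in the deletion. The opposite order was seen in Stk35 (0.762 and 1.23), Mpp6 (0.830 and 1.27), Kank1 (0.739 and 1.33), the intergenic circRNA at chr7:132948044-132950435 (0.906 and 1.25), Trim24 (0.679 and 1.33) and Etv6 (0.767 and 1.66).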

How the results depend on the processing

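The number of members was 380 and moved to 211 with a ratio of at least 0.90 and to 147 with junction reads counted once instead of 2 times. It was 551 at 0.80, 447 and 284 with minimums of 10 and 50 reads, 254 with the ratio required in every library, 485 and 382 when chosen on wild type or on the deletion alone, 363 by the unweighted mean of ratios (chosen after seeing the data), and from 375 to 411 with each library left out. By junction reads, 56 members rose and 43 fell with genotype. These counts were 3 and 340 with SRPBM constants, 32 and 69 without a filter and 56 and 90 with at least 20 reads in every library (the cause was not tested), and ranged from 40 to 53 and from 29 to 43 with a library left out. Of the 20 named members, 4 reversed with SRPBM constants: Pan3 (-0.11), Pola1 (-0.0736), Camta1 (-0.48) and Nmt1 (-0.23). With them 3 more lost their call: Bbs9 (0.0697), Eefsec (0.193) and Plekho1 (0.0048). For the share, 8 rises and 17 falls became 6 and 2 with DESeq2, with 69 adjusted p not given, and ranged from 3 to 8 and from 1 to 10 with a library left out. Members chosen on the P12 or the P13 libraries, an addition made after seeing the data, held 10 and 18 or 8 and 20. Calls by day among the members were 0 under every alternative run. Over all 44073 circRNAs without the filter, 7 rose and 10 fell by day in junction reads. No paired analysis was possible because the labels give no replicate numbers and each group held 1 library, while day as a term in the fit already set the genotypes against each other within a day (without that term 49 rose and 38 fell). Fewer reads in the deletion libraries widen its intervals.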
